A study of Mus musculus with 5 samples.

Results

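IRF8 binding sites of germinal centre (GC) B cells were set against those of B cells cultured for 72 h with lipopolysaccharide (LPS). The GC list held 1826 intervals and the LPS 72 h list 1059 peaks, 2885 regions of the 5590 in the 5 peak lists of the series. A place was called shared when an interval of one list overlapped one of the other by at least 1 bp, and the remaining regions were GC only or LPS only. This gave 202 shared places, 1624 GC only intervals and 857 LPS only peaks.

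The study used chromatin immunoprecipitation with sequencing (ChIP-seq) for IRF4 and IRF8 in B cells of wild type C57BL/6 mice. For the GC group, GC B cells were sorted 13 days after immunisation with NP-KLH, a hapten coupled to a carrier protein, flash frozen and passed to a service company for IRF8 ChIP-seq with the antibody C-19. For the LPS 72 h group, naive splenic B cells were cultured with 10 ug/ml LPS for 72 h and IRF8 was precipitated with the same antibody. The other 3 lists, IRF8 at 48 h and IRF4 at 48 h and 72 h of LPS, served only as further readouts at these places. No deletion, transgene or other agent was named for either group. The number of mice, and any pooling of them, is not given in the sources used here.

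IRF8 is a member of the interferon regulatory factor family and binds DNA weakly on its own. It binds the interferon-stimulated response element (ISRE), a pair of GAAA blocks, with other IRF proteins, the ETS-IRF composite element (EICE) with PU.1 or its relative SPIB, and composite elements with AP-1 proteins such as BATF and JUN. In GC B cells it is known as a factor for the germinal centre programme and for antigen presentation, and in activated B cells as a counterpart of IRF4, which drives plasma cell formation.

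Each side held 1 library, so no value has a replicate check and no test was made. Shares carry exact Clopper-Pearson 95% intervals and tag counts exact Poisson 95% intervals, which cover counting error only. The GC list was called with MACS and gives intervals of 406 to 3739 bp with no score, so the depth of its library is unknown, whereas the LPS list was called with HOMER as 500 bp peaks from 3065426 tags. Cell type, handling of the cells and caller differ together between the lists and cannot be told apart. The LPS list names a replicate in its header, and whether other libraries entered it is not given in the sources used here. Peak lists hold binding and not RNA, so the cell labels could not be checked against marker levels. Of 5 B cell markers, Pax5 alone was assigned a site within 50 kb in either list. Among GC markers, S1pr2 was assigned a GC only interval, and Bcl6 was assigned no site in either list.

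The sequences under the shared places carried 2 forms of IRF element. The ISRE core was searched as GAAA, any 2 bases, GAAA, and the EICE as GGAA, any 2 bases, GAAA, on both strands. The following are ISRE cores at shared promoters, shown with 10 bases on each side and in mm9 coordinates, because promoters of antigen processing and interferon-induced genes carried them close to the LPS peak centre. Capitals mark the match.
Erap1, chr13:74777287-74777316, minus strand: gcccgggaccGAAAGTGAAAgtgaaggtgg
Psmb8, chr17:34335280-34335309, minus strand: acaaggaagtGAAAGCGAAAgccacagtac
Tapbp, chr17:34056576-34056605, plus strand: gaaggaaaatGAAAGTGAAAggggaagaaa
Nmi, chr2:51828524-51828553, minus strand: tctaataaccGAAAGTGAAAgtaaggcctg
Irgm1, chr11:48684927-48684956, minus strand: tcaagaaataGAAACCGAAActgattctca
Gbp7, chr3:142193237-142193266, minus strand: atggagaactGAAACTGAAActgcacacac
Socs1, chr16:10785693-10785722, minus strand: agacttgccgGAAAGAGAAAccgaaagcgg
Parp9, chr16:35939048-35939077, minus strand: ctggggaatcGAAACTGAAActttgcctct

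The EICE matches at shared places of B cell receptor signalling, B lineage and class II genes, and at the strong shared places of Snx29 and Klf6, are shown next, with capitals again marking the match. The GGAA block is the ETS part and the GAAA block the IRF part.
Pax5, chr4:44684063-44684092, plus strand: agaactgggaGGAACTGAAAcctaaccccc
Bach2, chr4:32445745-32445774, minus strand: aaaaaaaaaaGGAAGTGAAAaatgagagta
Snx29, chr16:11386052-11386081, minus strand: accccaagaaGGAACTGAAAgcaccgcatg
Klf6, chr13:5863942-5863971, minus strand: tactgaaagtGGAACTGAAAgcacacagga
Ctss, chr3:95325289-95325318, minus strand: cccctcggagGGAAATGAAAgcagaaagag
Plcg2, chr8:119999898-119999927, plus strand: ccacagacagGGAAGTGAAAgttagggcgg
Inpp5d, chr1:89547449-89547478, minus strand: agcctttagaGGAACCGAAAgttacctctg
Dapp1, chr3:137644508-137644537, plus strand: tggctagcaaGGAAGTGAAActtggttgct
H2-DMb2, chr17:34280115-34280144, plus strand: acatgaatatGGAAGTGAAAtcctctccta
Among these 9 EICE matches, the base before GAAA was T in all but that of Inpp5d. The Pax5 element is also shown in its window of 100 bp on each side of the LPS peak centre, in the intron at chr4:44683957-44684156, where it lies next to a run of CT repeats.
Pax5 intron window, plus strand: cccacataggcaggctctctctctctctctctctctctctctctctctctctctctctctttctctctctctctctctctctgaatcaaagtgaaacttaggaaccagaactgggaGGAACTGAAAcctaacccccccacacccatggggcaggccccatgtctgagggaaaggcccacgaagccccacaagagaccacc

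ISRE cores were also found at GC only promoters of antigen processing and interferon genes, though not at all of them: the interval of Gbp9 held none. For some of those with a match, the match nearest the interval centre is shown, since the GC list has no summit.
B2m, chr2:121973274-121973303, plus strand: ataagaacatGAAACTGAAAatgggaaagt
Tap1, chr17:34324633-34324662, minus strand: agaggaagaaGAAACCGAAAgccgacctcg
Tap2, chr17:34341436-34341465, plus strand: gcagtgaagtGAAAGCGAAAgccgcgggac
Psme1, chr14:56197330-56197359, minus strand: agcgggaaggGAAAGCGAAAgcacagctcg
Psme2, chr14:56209764-56209793, minus strand: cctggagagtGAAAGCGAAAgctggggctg
Psmb10, chr8:108462009-108462038, minus strand: gggtgggggtGAAAGCGAAAgtaggaagcg
Isg15, chr4:155574974-155575003, minus strand: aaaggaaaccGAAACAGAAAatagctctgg
Irf7, chr7:148451724-148451753, minus strand: tcacacttgtGAAACTGAAAttcctacctg
LPS only promoters of listed genes, and the intronic peak of Pamr1, were searched only within 100 bp of the LPS centre. That window is narrower than the GC intervals searched above, so the numbers of matches are not compared. These matches stand for the ISRE (Trim21) and for the EICE (the others).
Trim21, chr7:109713964-109713993, minus strand: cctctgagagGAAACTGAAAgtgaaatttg
Trim25, chr11:88860703-88860732, minus strand: cagcgaggaaGGAATCGAAActgaacagga
Zbtb20, chr16:43364416-43364445, plus strand: ggtgggagggGGAAGTGAAAgtgggaataa
Isg20, chr7:86057441-86057470, minus strand: tcaggggagaGGAAATGAAAcctaagatag
Pamr1, chr2:102478435-102478464, minus strand: taacgaatggGGAAATGAAAcctagagagg

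The lists overlapped in a minority of their regions. Shared places made up 11.1% of the GC intervals (202 of 1826, 95% interval 9.66 to 12.6) and 19.1% of the LPS peaks (202 of 1059, 16.7 to 21.6). No region of either list met more than 1 region of the other. The LPS peak lay wholly inside the GC interval at 182 of the 202 places, and its centre lay inside at 201. The LPS centre was a median of 156 bp from the middle of the GC interval (quartiles 68.8 and 275 bp). Near misses were few: 58 of 1624 GC only intervals (3.57%) had the centre of an LPS peak within 10 kb, and 42 of 846 placed LPS only peaks (4.96%) had the centre of a GC interval within 10 kb.

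Overlap was more frequent among wider GC intervals and among LPS peaks with more tags. By width, the narrowest 25% of GC intervals were shared in 4.38% of cases (2.69 to 6.68), the next in 8.11%, the next in 10.7% and the widest in 21.1% (17.4 to 25.1). The median width was 1440 bp for shared and 1123 bp for GC only intervals. A wider interval has more bases in which to meet a peak, and the GC list has no score. The part of width alone in this order was not tested. By normalised tag count, 7.43% of the single-copy LPS peaks with 22.8 to 26.1 tags were shared (13 of 175, 4.01 to 12.4). The share was 11.2% at 29.4 tags, 19.4% at 32.6 to 35.9 tags and 40.6% at 39.1 tags and above (95 of 234, 34.2 to 47.2). The very top of the LPS list did not follow this order: of its 20 strongest peaks 1 was shared, and 17 of the 20 lay in multi-copy or unplaced sequence. Multi-copy or unplaced sequence held 7.92% of shared places by the LPS peak, 7.94% of GC only intervals and 14.8% of LPS only peaks.

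**Figure D1:**
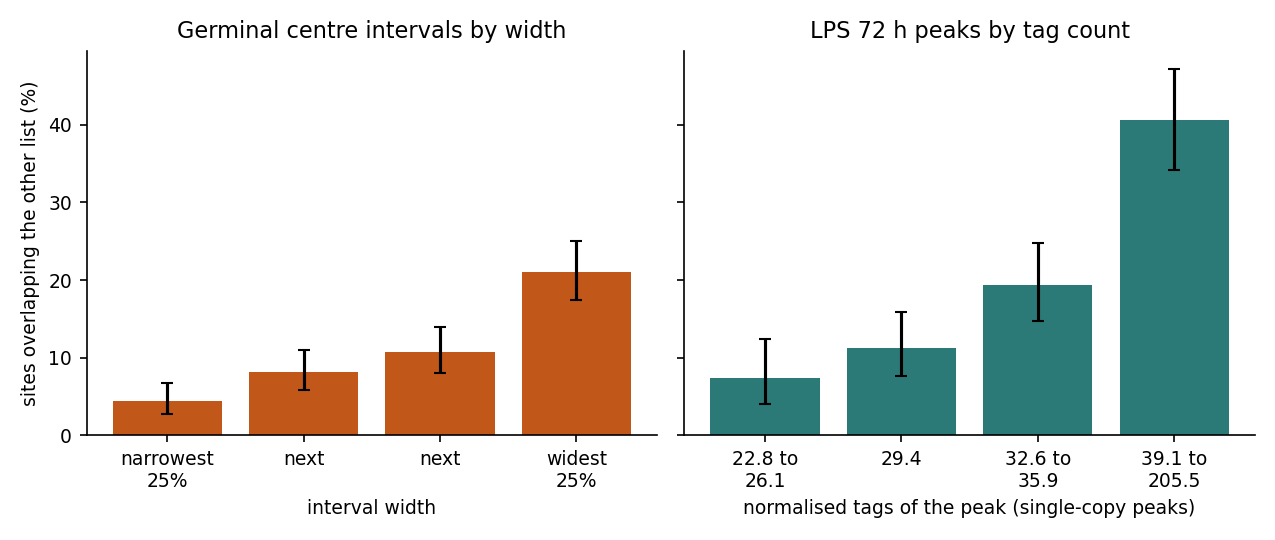
Share of regions that overlapped the other list (vertical axis, percent), for GC intervals ranked by width (left) and single-copy LPS 72 h peaks grouped by normalised tag count (right). Bars are shares and whiskers exact 95% intervals of counting error. The share goes up along both axes, to 21.1% of the widest GC intervals and 40.6% of the LPS peaks with the most tags.

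GC only intervals lay at promoters more often than LPS only peaks did. A promoter site was one with its centre within 1000 bp of the transcription start site (TSS) of a protein-coding gene of GENCODE M1. Promoter sites were 19.3% of shared places (39 of 202, 14.1 to 25.4), 27.3% of GC only intervals (443 of 1624, 25.1 to 29.5) and 7.57% of LPS only peaks (64 of 846, 5.87 to 9.56). The interval of LPS only peaks did not overlap that of either other class. The median distance to a TSS was 12.4 kb for shared places, 8.16 kb for GC only intervals and 18.2 kb for LPS only peaks. Introns held 37.1% of shared places, 34.2% of GC only intervals and 41.0% of LPS only peaks. Intergenic sequence held 41.6% of shared places, 36.6% of GC only intervals and 48.8% of LPS only peaks. Within the promoter group, the LPS centre lay within 100 bp of the TSS at 43.6% of shared sites (17 of 39, 27.8 to 60.4) and 25% of LPS only sites (16 of 64, 15.0 to 37.4), whose intervals overlap. The middle of the GC interval did so at 28.2% of shared sites (11 of 39, 15.0 to 44.9) and at 102 of 443 GC only sites (19.2 to 27.2%), whose intervals overlap as well.

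**Figure D2:**
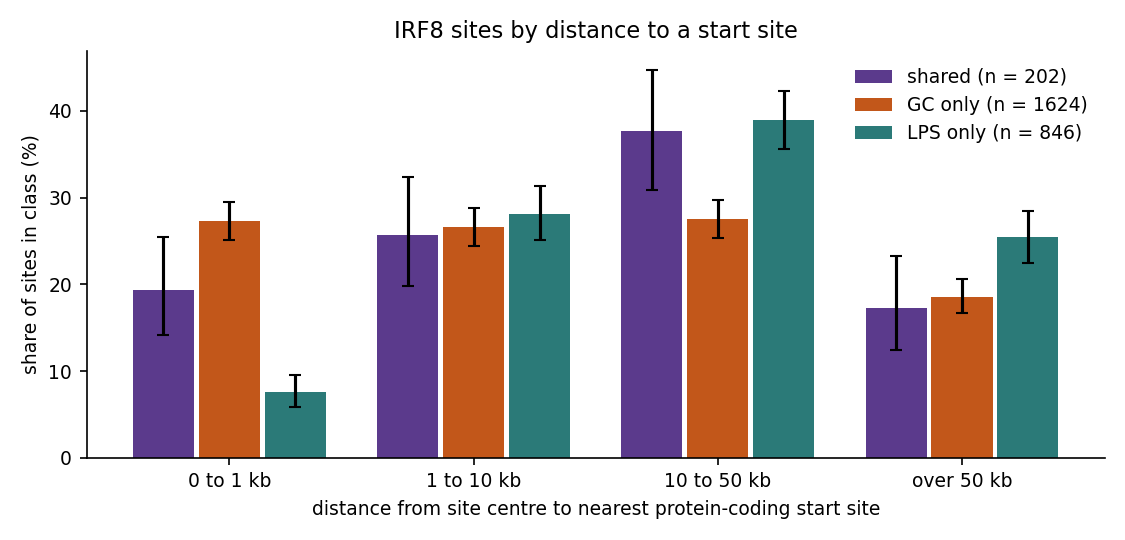
Share of sites (vertical axis, percent of the class) by distance from the site centre to the nearest protein-coding start site, for shared places centred on the LPS peak, GC only intervals and placed LPS only peaks. Whiskers are exact 95% intervals. Within 1 kb of a start site stood 19.3% of shared, 27.3% of GC only and 7.57% of LPS only sites.

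Shared places carried IRF elements more often than LPS only peaks did, and the EICE more often than GC only intervals. Within 100 bp of the LPS centre, an ISRE core was found at 31.2% of shared places (63 of 202, 24.9 to 38.1) and 7.46% of LPS only peaks (63 of 845, 5.78 to 9.44). Windows of the same width 2000 bp away held one in 1.73% and 2.96%. The EICE stood at 34.7% of shared places (70 of 202, 28.1 to 41.7) and 19.1% of LPS only peaks (161 of 845, 16.5 to 21.9), with 2.23% and 2.37% in the flanks. The AP-1 site (TGACTCA or TGAGTCA) was present at 13.4% of shared places and 6.75% of LPS only peaks, with 4.46% and 3.91% in the flanks. A PU.1-type ETS site, GAGGAA followed by GT, was present at 11.9% of shared places and 5.80% of LPS only peaks. None of these 4 elements lay in the window of 28.7% of shared places (58 of 202) and 65.4% of LPS only peaks (553 of 845). Only 13 shared places held both an ISRE core and an EICE.

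The ISRE share was higher at shared places than at LPS only peaks in each group of tag counts, and the 95% intervals did not overlap among the strongest peaks and at 29.4 tags. Among single-copy peaks with 39.1 tags or more, 26.3% of 95 shared places had an ISRE core (17.8 to 36.4), against 7.91% of 139 LPS only peaks (4.02 to 13.7). At 32.6 to 35.9 tags the shares were 22% and 9.62%, at 29.4 tags 42.9% and 8.60%, and below that 30.8% and 4.94%. For the EICE the shares of the strongest peaks were 40% of shared places (30.1 to 50.6) and 35.3% of LPS only peaks (27.3 to 43.8), whose intervals overlap widely. At 32.6 to 35.9 tags they were 38% and 22.6%, at 29.4 tags 32.1% and 17.6%, and below that 23.1% of 13 shared places and 12.3%.

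The whole GC interval had to be searched for GC only sites, with flanks of equal width as the background. By that measure 45.0% of shared GC intervals (38.1 to 52.2) and 36.4% of GC only intervals (591 of 1623, 34.1 to 38.8) held an ISRE core, with 14.6% and 16.8% in the flanks. The EICE was held by 46.5% of shared intervals (39.5 to 53.7) and 20.1% of GC only intervals (18.2 to 22.1), with 13.4% and 12.2% in the flanks. The median GC only interval was narrower than the median shared one. In an equal window of 100 bp on each side of the GC interval's middle, the ISRE core was at 14.4% of shared and 13.3% of GC only intervals, and the EICE at 18.8% (13.7 to 24.9) and 5.91% (4.81 to 7.17). AP-1 sites were in 27.2% of shared and 23.4% of GC only intervals, with 27.7% and 18.7% in the flanks.

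**Figure D3:**
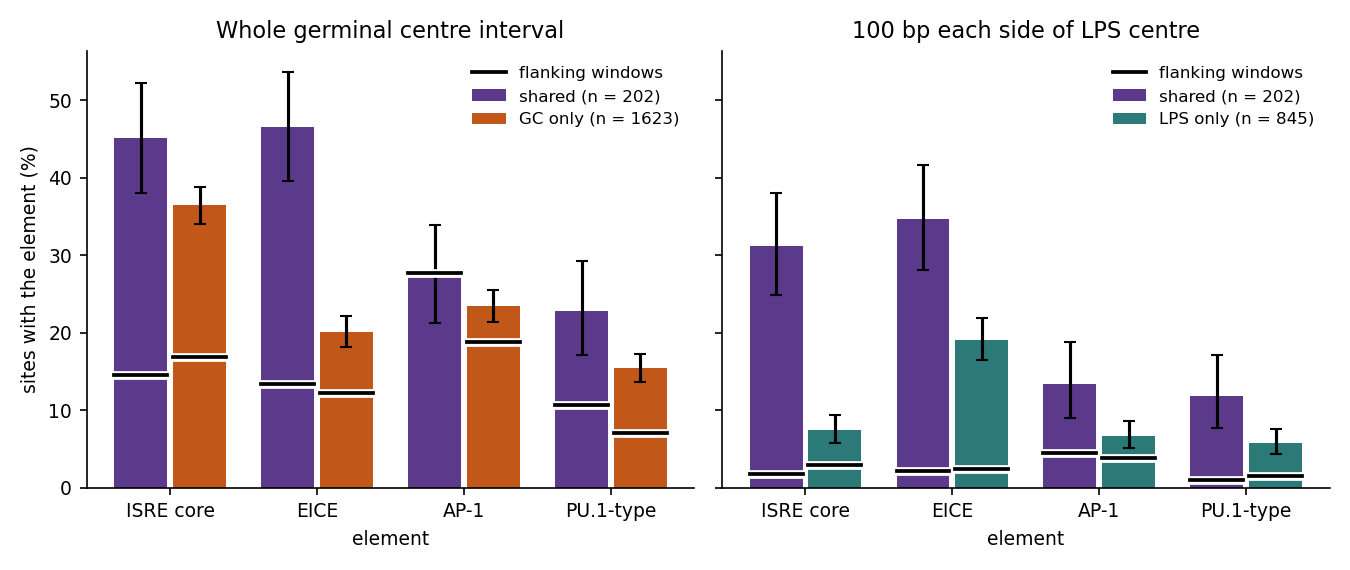
Share of sites with each element (vertical axis, percent) in whole GC intervals (left, shared and GC only) and within 100 bp of the LPS centre (right, shared and LPS only). Whiskers are exact 95% intervals and black lines the share in flanking windows of the same width. The EICE stood at 46.5% of shared and 20.1% of GC only intervals, and the ISRE core at 31.2% of shared places and 7.46% of LPS only peaks.

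Some of the ISRE matches lay in GAAA repeats. Windows of 100 bp on each side that held 4 or more ISRE matches within 100 bp of each other were 12 of the 202 shared places, 72 of 1624 GC only intervals and 1 of 845 LPS only peaks. The shared place 31.6 kb from Hes1, a Notch target gene, had 14 such matches and 65.2 tags. With such windows left out, a rule set after the data were seen, the ISRE share was 26.8% at shared places (51 of 190, 20.7 to 33.7) and 7.35% at LPS only peaks. Over the whole GC interval, 12 of 202 shared and 119 of 1623 GC only intervals held such a cluster of matches. Without these, the ISRE core was in 41.6% of 190 shared intervals (34.5 to 48.9) and 31.4% of 1504 GC only intervals (29.0 to 33.8).

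At shared places, elements within 100 bp lay nearer to the LPS centre than those about the middle of the GC interval lay to that middle. With repeat windows left out, the nearest ISRE core lay a median of 18 bp from the centre at 51 shared places and 33 bp at 62 LPS only peaks. The nearest EICE lay 14 bp from the centre at 68 shared places and 22 bp at 161 LPS only peaks, and it was within 25 bp at 51 and 95 of them. About the middle of the GC interval, the nearest ISRE core lay a median of 42 bp away at 23 shared places and 46 bp at 144 GC only intervals, and it was within 25 bp at 7 and 36 of them. The nearest EICE lay 49 bp away at 38 shared places and 45 bp at 75 GC only intervals, and it was within 25 bp at 9 and 19 of them. Measured from that middle, the distances at shared and GC only sites were close to each other. Only matches within 100 bp were counted, and matches spread evenly over that window would lie about midway between its middle and its edge. The likeness of the 2 classes is therefore bounded by the window, and no conclusion is drawn from it.

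**Figure D4:**
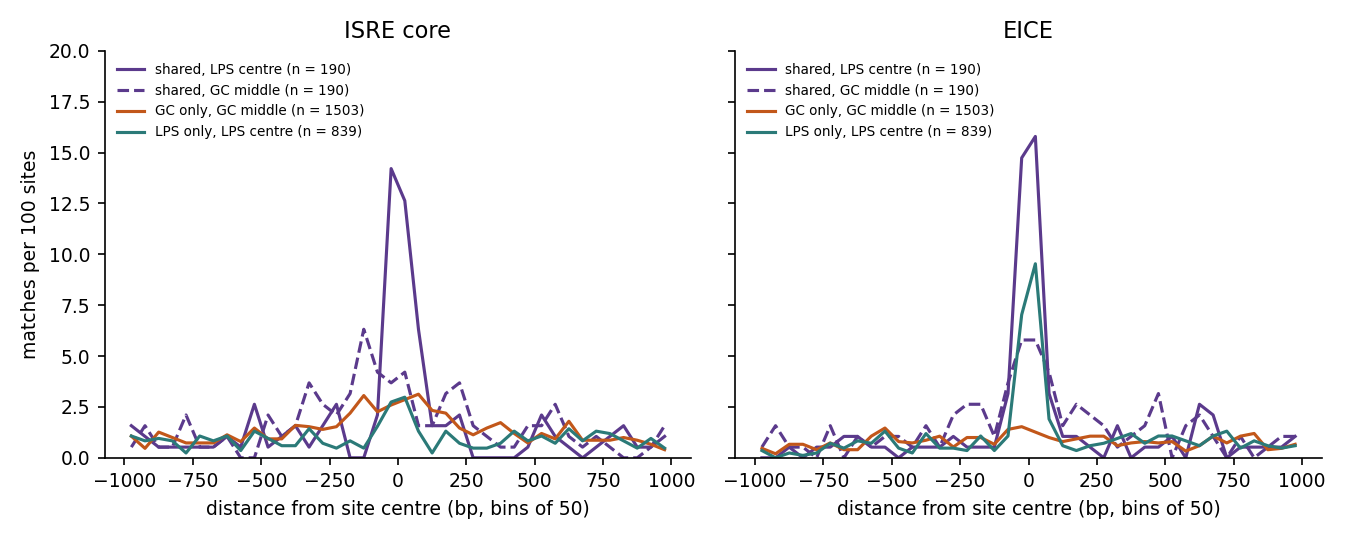
Matches per 100 sites (vertical axis) in bins of 50 bp from the site centre (horizontal axis, bp) for the ISRE core (left) and the EICE (right), at shared places and LPS only peaks centred on the LPS peak (solid lines), and at shared places (dashed line) and GC only intervals (solid line) centred on the middle of the GC interval, without sites that hold 4 or more ISRE matches within 100 bp of each other. In the bin just past the LPS centre, shared places had 12.6 ISRE and 15.8 EICE matches and LPS only peaks 2.98 and 9.54, and in the bin just past the GC middle, shared places had 4.21 and 5.79 and GC only intervals 2.86 and 1.26.

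The base before the second block was counted in the match nearest the centre. About the LPS centre, this base of the ISRE core was T in 78.4% of 51 shared places (64.7 to 88.7) and 35.5% of 62 LPS only peaks (23.7 to 48.7), and that of the EICE in 82.4% of 68 shared places (71.2 to 90.5) and 73.3% of 161 LPS only peaks (65.8 to 79.9). About the GC middle, it was T in the ISRE core of 60.9% of 23 shared places (38.5 to 80.3) and 46.5% of 144 GC only intervals (38.2 to 55.0), whose intervals overlap. In the EICE it was T in 84.2% of 38 shared places (68.7 to 94.0) and 38.7% of 75 GC only intervals (27.6 to 50.6). The spacer GT made up 55.9% of the shared and 35.4% of the LPS only EICE matches about the LPS centre, and 52.6% of the shared and 21.3% of the GC only ones about the GC middle. The excess of elements over the flanks differed between classes. For the ISRE core at LPS only peaks the window and flank shares were 7.46% and 2.96%, against 31.2% and 1.73% at shared places. For the EICE about the GC middle they were 5.91% and 2.00% at GC only intervals, against 18.8% and 1.24% at shared places, and the part of this in the base counts was not tested.

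Shared promoters held the ISRE core more often than shared places elsewhere. Of the 39 shared promoter places, 24 had an ISRE core within 100 bp of the LPS centre (61.5%, 44.6 to 76.6), 1 of them a GAAA repeat, and 13 had an EICE (33.3%, 19.1 to 50.2). Both elements stood at 7 and neither at 9. At each of these 7 an ISRE core and an EICE overlapped in a common GAAA block, so they were not separate stretches. The ISRE share was 14.1% at LPS only promoters (9 of 64, 6.64 to 25.02) and 2.07% at all 22377 protein-coding promoters with the same window about the TSS. The EICE share was 18.8% at LPS only promoters and 1.56% at all promoters. PU.1-type sites were at 0 of the 39 shared promoters, which allows a share of up to 9.03%, and at 14.7% of the 163 shared places elsewhere (24 places, 9.67 to 21.1). Away from promoters, shared places had the ISRE core in 23.9% (17.6 to 31.2) and the EICE in 35.0% of cases. Whole GC only promoter intervals had an ISRE core in 32.3% of cases (143 of 443, 27.9 to 36.9). All promoters taken over a window of similar width had 13.0%.

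The median ratio of observed to expected CpG was 0.487 in the GC intervals of shared promoters and 0.642 in GC only promoter intervals. The SP1-type letters GGGCGG, on either strand, were in 71.8% of the shared ones, in 72.7% of the GC only ones and in 61.1% of all promoters. The windows of all promoters had a fixed width and the GC intervals varied in width, so these shares are not at equal width. Over the 500 bp of the LPS peak, the median CpG ratio was 0.490 at shared and 0.279 at LPS only promoters.

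Most listed genes of MHC class I antigen processing had a GC interval at the promoter. The 12 gene lists were chosen with earlier results of these data known, so their shares are descriptive and not an unbiased enrichment. Neighbouring genes, such as Tap1, Psmb8 and Tap2 or Psme1 and Psme2, are not independent counts. Over all 22238 protein-coding genes, 5.99% were assigned a GC interval within 50 kb, 3.37% an LPS peak and 0.733% a shared place. At promoters the shares were 2.12% for the GC list and 0.463% for the LPS list. Of 15 class I processing genes, 11 had a GC interval and 4 an LPS peak, and all 11 with a GC interval had one at the promoter. The 3 shared ones were at the promoters of Erap1, an aminopeptidase that trims peptides in the endoplasmic reticulum, Psmb8, a subunit of the immunoproteasome, and Tapbp, which encodes tapasin and loads peptides onto class I molecules.

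The Erap1 promoter was the strongest single-copy shared place, with 143.5 normalised tags in the LPS 72 h list (44 tags before scaling, 104 to 193 after it) inside a GC interval of 1850 bp. Its LPS centre was 10 bp from the TSS, and the LPS peak held only the ISRE core printed above. It had 64.0 tags in the IRF8 48 h list and was in neither IRF4 list. The Psmb8 promoter had 52.2 tags (29.8 to 84.8) in a GC interval of 1961 bp, 238 bp from the TSS. Its ISRE core and EICE overlap. The Tapbp promoter had 39.1 tags (20.2 to 68.4) in a GC interval of 2061 bp, with 2 ISRE cores near the LPS centre. Neither Psmb8 nor Tapbp was in another LPS list.

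The 8 class I genes with a GC interval and no LPS peak were B2m, H2-K1, H2-T23, Psmb10, Psme1, Psme2, Tap1 and Tap2. B2m encodes the light chain of class I molecules, Tap1 and Tap2 the peptide transporter, Psme1 and Psme2 the proteasome activator, and Psmb10 an immunoproteasome subunit. Each of these GC intervals held at least 1 ISRE core, and that of Psmb10 held 2. H2-T23 lies in multi-copy sequence. The middle of the interval was 14 bp from the TSS at B2m, 178 bp at Tap1, 92 bp at Tap2 and 6 bp at Psme2. In the other direction, Psmb9 had only an LPS peak, 2.85 kb from its TSS, with 39.1 tags and an EICE. It was in all 3 other LPS lists, with 22.9 tags for IRF8 at 48 h and 53.0 and 39.8 tags for IRF4 at 48 h and 72 h.

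For MHC class II presentation, both lists named the same 4 of 14 genes, each by a shared place: Ctss, H2-DMb2, H2-Oa and Cd74. Ctss encodes cathepsin S, which cuts the invariant chain. Its shared place lay 5.40 kb upstream with 62.0 tags (37.3 to 96.8) and an EICE, and a GC only interval at its promoter held an ISRE core. H2-DMb2 is a chain of the peptide exchange molecule DM, and its promoter had 39.1 tags (20.2 to 68.4), an EICE and peaks in all 3 other LPS lists. H2-Oa, a chain of the DM inhibitor DO, had 32.6 tags at 9.53 kb without an element near the centre. Cd74, the invariant chain, had shared places 81 bp and 11.7 kb from its TSS with 29.4 and 35.9 tags, each with an EICE.

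Interferon-induced GTPases, which act against intracellular microbes, had a GC interval at 7 of 14 genes and an LPS peak at 5, each of these genes having one at its promoter. The 4 shared ones were Irgm1 with 42.4 tags (22.6 to 72.5), Gbp7 with 35.9, Irgm2 with 32.6 and Gbp3 with 26.1 (11.3 to 51.4). All 4 had an ISRE core near the LPS centre. Tgtp1, Gbp2 and Gbp9 had GC only promoter intervals, and Gbp4 had an LPS only promoter peak with none of the 4 elements. Gbp2 also had an intergenic GC only interval 25.8 kb from its TSS, with 21 ISRE matches. Gbp4 and Gbp9 lie in multi-copy sequence. Among 30 antiviral interferon-stimulated genes, 10 had a GC interval and 4 an LPS peak. Parp9 alone was shared, at its promoter with 29.4 tags (13.4 to 55.7) and an ISRE core and an EICE that overlap. Bst2, Dhx58, Ifi35, Ifih1, Isg15 and Parp14 had GC only promoter intervals, and Trim21 and Trim25, both ubiquitin ligases, had LPS only promoter peaks with 39.1 and 32.6 tags. Isg20, an exonuclease, had both kinds at its promoter without overlap: a GC only interval 36 bp from the TSS with an ISRE core, and an LPS only peak 821 bp from it with 26.1 tags and an EICE.

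B cell identity and receptor signalling genes were shared mainly away from promoters. Of 20 B lineage transcription factors, 7 had a GC interval and 6 an LPS peak, and Pax5, the factor that keeps B cell identity, was the 1 with a shared place within 50 kb. That intronic place, 12.6 kb from the TSS, had 104.4 tags (71.4 to 147) inside a GC interval of 3309 bp. It was in all 3 other LPS lists, with 32.0 tags for IRF8 at 48 h and 76.5 and 92.9 tags for IRF4 at 48 h and 72 h. Bach2, a repressor that holds back plasma cell formation, had a shared intronic place 58.6 kb from the nearest TSS, past the limit for the list, with 68.5 tags (42.4 to 105). The same place had 120.7 and 66.4 tags in the IRF4 48 h and 72 h lists and was not in the IRF8 48 h list. Bach2 also had 3 GC only intervals and 2 LPS only peaks nearby. Ikzf1 and Etv6 had GC only promoter intervals.

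Of 21 B cell receptor signalling genes, 9 had a GC interval, 6 an LPS peak and 4 a shared place. Plcg2, a phospholipase C, had 55.5 tags (32.3 to 88.8) at 22.3 kb upstream of its TSS with an EICE. Inpp5d, a lipid phosphatase that limits receptor signals, had 52.2 tags (29.8 to 84.8) in an intron with an EICE, and 70.7 and 45.1 tags there in the IRF4 48 h and 72 h lists. A second Inpp5d peak with 26.1 tags and an AP-1 site at a promoter was LPS only. Dapp1, an adaptor of the pathway, had 32.6 tags at its promoter with an EICE. Lyn, a kinase of the receptor, had a GC only promoter interval.

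Of 20 germinal centre genes, 6 had a GC interval and 5 an LPS peak, with Cd83 and Cxcr5 in both lists at different places. No shared place was assigned to them or to the 10 plasma cell genes, and with 0.733% of all genes having one, a count of 0 in lists of this size is near that background. Cxcr5, the receptor that leads B cells to follicles, had a GC only interval 4.48 kb from a TSS and an LPS only promoter peak of 35.9 tags. Cxcr4 had a GC only promoter interval. For the plasma cell genes, 4 had a GC interval and 2 an LPS peak. Irf4 was in both lists, at 10.8 kb for the GC only interval with ISRE cores and at 20.9 kb for the LPS only peak with an EICE, and Zbtb20 had an LPS only promoter peak of 32.6 tags. Prdm1, the plasma cell regulator Blimp-1, had a GC only interval 1.15 kb from its TSS.

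Of 12 IRF and STAT genes, 6 had a GC interval and 4 an LPS peak. Irf2 was shared at its promoter with 26.1 tags (11.3 to 51.4) and an EICE, and Stat3 and Irf7 had GC only promoter intervals. Irf8 itself had a GC only interval 10.5 kb from its TSS. Toll-like receptor and NF-kappaB genes had a GC interval at 6 and an LPS peak at 3 of 25 genes, with no shared place. As 0.733% of all genes had a shared place, a count of 0 among 25 is near that background. Tlr4, the receptor for LPS, had an LPS only promoter peak of 39.1 tags (20.2 to 68.4), and Rel, Tlr6 and Tlr9 had GC only promoter intervals. Of 14 apoptosis genes, 5 had a GC interval and 3 an LPS peak. Mdm2, which targets p53 for degradation, was shared at 9.30 kb with 32.6 tags, and Cflar, Casp8 and Bak1 had GC only promoter intervals. Of 10 macrophage and T cell genes, Lck had a GC only and Mpeg1 an LPS only promoter site.

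**Figure D5:**
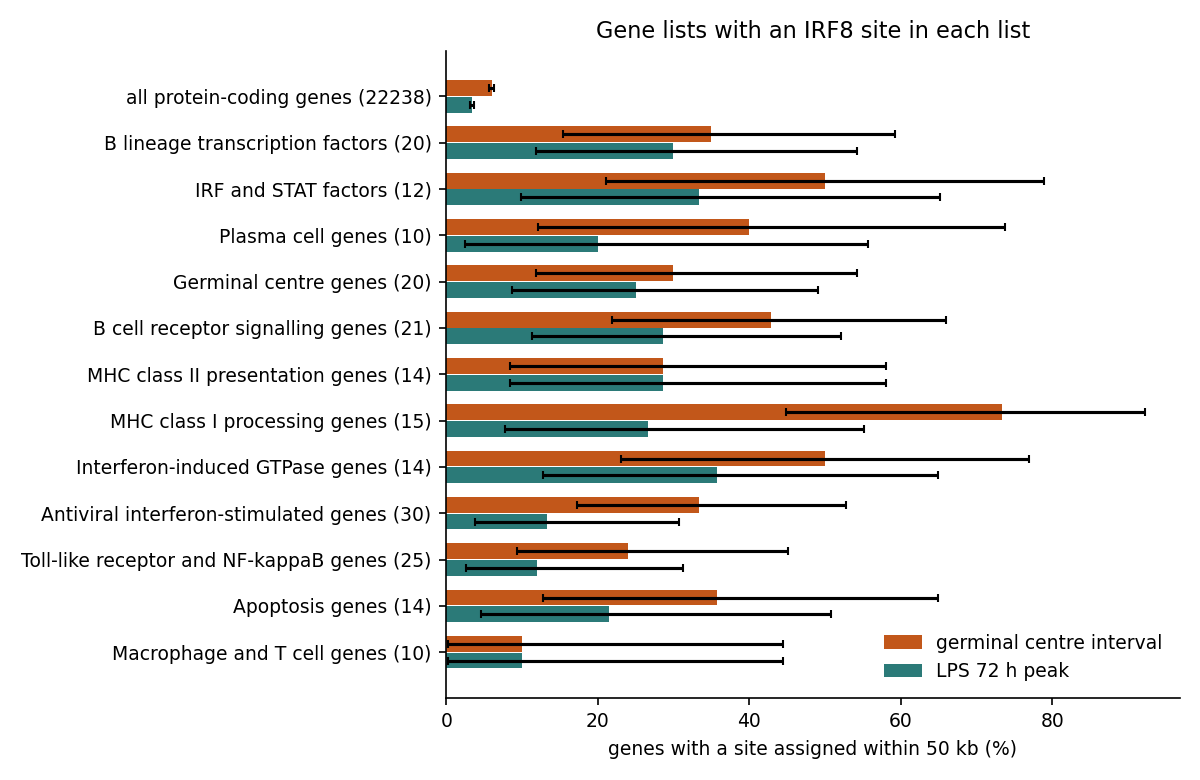
Share of the genes of each list (horizontal axis, percent; number of annotated genes in parentheses) assigned a GC interval or an LPS 72 h peak within 50 kb, with exact 95% intervals of counting error, beside all protein-coding genes. Class I processing genes had the highest GC share of the 12 lists, 11 of 15, against 4 of 15 with an LPS peak. The lists were chosen with earlier results of these data known.

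The remaining strong shared places lay at varied genes. The Tcfeb promoter, of a lysosomal transcription factor, had 97.9 tags (30 tags before scaling, 66.0 to 140 after it) with an AP-1 site and was in all 3 other LPS lists. The places near Gm4968 and Stoml1 had 91.3 tags each with an ISRE core, and those of Snx29 with 78.3 and Klf6 with 65.2 tags had an EICE. An intronic place of Ndst1 had 78.3 tags and an EICE, one 72.8 kb from Slc22a8 had 68.5 tags and an ISRE core, and one in an intron shared by Agbl4 and Bend5 had 65.2 tags and a PU.1-type site. Over the 12 strongest single-copy shared places, the GC interval was 844 to 3309 bp wide. The 8 strongest single-copy LPS only peaks had 88.1 to 205.5 tags, and all 8 were in all 3 other LPS lists. They were nearest to Pak3, Axin2, Sfi1, Vmn1r238, Cdk8, Gdi2, Recql5 and Pamr1, and only that of Pamr1 had an EICE or ISRE core within 100 bp of its centre. Those nearest to Sfi1 and Vmn1r238 lay at chr11:3005350-3005850 and chr18:3005604-3006104. Whether these 8 peaks mark IRF8 binding was not tested. The 8 widest GC only intervals, of 3159 to 3739 bp, were nearest to Fam5b, Tm6sf1, Gadd45g, Ppp6r1, 3930402G23Rik, Tmem116, Spata5 and 2410004P03Rik. Of these, 5 held an ISRE core, and only that of Ppp6r1 had a match within 100 bp of its middle. An interval this wide has more bases in which to hold a match, and no background of equal width was taken for these 8.

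Shared places were found in the other LPS lists more often than GC only or LPS only sites. By the class rule every shared place was an LPS 72 h peak and no GC only interval was, so these classes did not start level. Shared places also had more tags than LPS only peaks (median 39.1 and 29.4), and the shares were not split by tag count. The IRF8 list at 48 h held 19.3% of shared places (39 of 202, 14.1 to 25.4), 0.431% of GC only intervals (7 of 1624) and 11.6% of LPS only peaks (99 of 857, 9.49 to 13.9). IRF4 at 48 h was found at 37.1% of shared places (30.5 to 44.2), 7.08% of GC only intervals (5.88 to 8.44) and 206 of 857 LPS only peaks (21.2 to 27.0%). At 72 h, IRF4 was found at 35.6% of shared places (29.0 to 42.7), 6.16% of GC only intervals and 21.7% of LPS only peaks (19.0 to 24.6). At least 1 of these 3 lists held 107 shared places (53.0%), 159 GC only intervals (9.79%) and 264 LPS only peaks (30.8%). Of the whole GC list, 361 intervals (19.8%, 18.0 to 21.7) overlapped at least 1 of the 4 LPS lists.

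Shared places with an ISRE core overlapped IRF4 peaks less often than those with an EICE. At 72 h the overlap was 31 of 70 EICE places (44.3%, 32.4 to 56.7) and 14 of 63 ISRE places (22.2%, 12.7 to 34.5), whose intervals overlap. At 48 h it was 26 of 70 (37.1%, 25.9 to 49.5) and 7 of 63 (11.1%, 4.59 to 21.6), and the 13 places with both elements count in each. All shared places had shares of 37.1% at 48 h and 35.6% at 72 h, so the EICE places were close to them at 48 h. At 48 h IRF4 was found at 10.3% of shared promoters (4 of 39) and 43.6% of other shared places (71 of 163). At 72 h it was found at 28.2% and 37.4%, whose intervals overlap. Of the 63 ISRE places, 24 were promoters and 12 held GAAA repeats, and the part of either in the difference was not tested. Among the 24 shared promoters with an ISRE core, IRF4 was found at 0 at 48 h and at 6 at 72 h, and IRF8 at 1 at 48 h. Peaks found in all 4 LPS lists numbered 17 among the shared and 64 among the LPS only. An EICE was in 9 and an ISRE core in 1 of the 17 shared windows, and in 11 and 0 of 60 complete LPS only windows. None of those 17 shared places was multi-copy or unplaced, against 31 of the 64 LPS only peaks.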

How the data were processed

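ChIP-seq peak lists of the authors were used as deposited, with 1 library per group. The GC list was called with MACS per the series' design text and gives positions alone. Which MACS version, control and cutoff it had is not given in the sources used here. The LPS lists were called with HOMER findPeaks, per the file headers, with peaks of 500 bp, a false discovery rate of 0.001 and a fold of 4 over the local 10000 bp. The normalised tag count, a signal that the authors scaled to 10000000 tags, ranked peaks within a list, and the deposited score, fraction, fold ratios and p-value of each peak were not used. Dividing out the scaling gave whole tags within 0.05 for 100% of LPS 72 h peaks. Alignment is credited to BWA and Bowtie2 in the submitters' processing notes, with no version, and the design text words it differently. The build was mm9 per the labels.

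Overlaps, distances to GENCODE M1 protein-coding start sites and motif letters in the mm9 genome were computed with Python 3.11.15, numpy 2.4.6, scipy 1.17.1 and pysam 0.24.0, after samtools 1.23.1 indexing, and checked on simulated data. Shared places were centred on the LPS peak. A peak was single-copy when the median word of 24 bases within 100 bp of its centre occurred 1 time in the genome. Peaks of 1 tag count were kept in 1 rank group. A region was assigned to the gene with the nearest start site, up to 50000 bp for gene lists. Named regions were the 12 shared and 8 LPS only single-copy peaks with the most tags, the 8 widest GC only intervals, and listed genes with a shared place or a single-list promoter site, with other genes named as nearby. Other overlap rules, windows, promoter widths, distance limits and peak subsets were tried as alternatives. A few listed genes are not reported here. The members and the 12 gene lists were chosen with earlier results of these data known.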

Additional observations from a re-analysis of the deposited data

How the results depend on the processing

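Over 29 results and 92 alternatives, 65 values stayed within their interval or within 1.5 times a count, and 27 moved. With LPS peaks at or above the median tag count, 8.65% of GC intervals and 27.4% of LPS peaks were shared, and the EICE was at 24.5% of LPS only peaks. A promoter of 2500 bp gave 27.7% of shared, 35.2% of GC only and 15.1% of LPS only sites. Within 100 bp of the GC middle, shared and GC only intervals had the ISRE core in 14.4% and 13.3%, the EICE in 18.8% and 5.91% and AP-1 in 8.42% and 5.42%. Within 50 bp they had the ISRE core in 8.91% and 8.005%, the EICE in 7.92% and 3.20% and AP-1 in 5.45% and 2.77%. LPS only peaks had within 50 bp the ISRE core in 4.96%, the EICE in 15.6% and AP-1 in 4.37%, and over 500 bp the ISRE core in 11.4% and AP-1 in 10.7%. Narrower windows hold fewer letters. Without the 119 repeat-like intervals the GC only ISRE share was 31.4%. A limit of 10000 bp left 91 genes with a shared place and 384 with an LPS peak. Of single-copy LPS only peaks, 8.22% were in the IRF8 list of 48 h. Leaving out repeat windows or peaks of all 4 LPS lists, and the 100 bp window about the GC middle, were chosen after seeing the data. No paired analysis was possible because each group holds 1 library. No depth is known for the GC side, so a site missing from that list is only one not called there.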

Other observations

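Of the 248 genes with a site in both lists within 50 kb of a TSS, 85 had no shared place within that distance. Among listed genes these included Etv6, Irf4, Stat3, Cd83, Cxcr5, Lyn, Isg20, Tlr1 and Mcl1. Stat3 had GC only intervals 880 bp and 7.40 kb from a start site and LPS only peaks at 3.03 kb and 10.7 kb, the last with an EICE. Etv6 had 4 GC only intervals, among them its promoter with an ISRE core, and an LPS only intronic peak of 32.6 tags with 2 ISRE cores. Bcl2 had sites of both kinds inside the gene, over 50 kb from its start site, and the LPS only peak of 42.4 tags there had an EICE. Myc had an LPS only peak of 35.9 tags with an EICE 12.4 kb away, which had 25.1 tags in the IRF8 48 h list and 64.8 in the IRF4 48 h list. Myc and Bcl2 were named after their values were seen.

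The shared promoters of Gm6034 and RP23-108F2.4 held the same 30 bases about the ISRE core, with 39.1 and 29.4 tags. The shared promoter of Clic5 was the 1 shared promoter whose ISRE matches were a GAAA repeat.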
